A study of Mus musculus with 16 samples.

Results

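The livers compared were 2 labelled Abca1 +/- and 2 labelled +/+, 4 of the 16 arrays of a mouse series. Its other arrays measured embryonic stem (ES) cell lines, some with heterozygous mutations and some +/+. Members were chosen by the source name of each array, without reference to any signal. All 4 livers came from mice of mixed background (C57BL6/J and 129/SvJ) and had been frozen before total RNA was isolated. Each RNA was hybridised to 1 Affymetrix U74Av2 array, which reads a transcript through a set of short probes, called a probe set, placed mostly near its 3' end. The labels gave no sex, age, diet, hour of sampling, litter or replicate number, and did not describe the Abca1 allele. The title of the first liver labelled +/- also called it mutant, whereas the title of the second did not name a genotype. Livers are called the first and the second of their label in the order listed, and paired values are given in that order. The ES cells used for comparison were 3 arrays of an Abca1 +/- line and 3 of ESVJ, its +/+ parental line, grown on mouse embryonic feeders that were removed before harvest. Nothing in the labels ties a liver to another, so p-values measure only the spread between these samples, 2 per label.

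Abca1 encodes a membrane transporter that hands cellular cholesterol and phospholipid to apolipoprotein A-I, the step that starts high-density lipoprotein. In the liver it loads most of the newly secreted apolipoprotein A-I, while Apob, the scaffold protein of very-low-density lipoprotein, carries triglyceride out of the hepatocyte. Abca1 transcription is driven by the oxysterol receptors LXR, and cholesterol synthesis is controlled in the opposite sense through SREBP-2.

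Both labels gave liver transcript patterns, with Alb, the main plasma protein of hepatocytes, at 45743 and 58581 in the +/+ livers and at 53443 and 39006 in those labelled +/-. These are signals rescaled so that the trimmed mean of every array is 500, and they serve to compare one probe set across arrays. All 8 pluripotency transcripts on the list were under the signal minimum for testing, with summed signals of 343 and 345 in the +/+ livers and 406 and 220.5 in the others. The first liver labelled +/- stood apart in its control transcripts. Its 3' to 5' signal ratio for actin was 8.23, against 2.14 in the second liver labelled +/-, 1.78 and 1.81 in the +/+ livers and 1.04 to 1.40 in the 12 ES cell arrays. For Gapdh the same ratio was 4.10 in that liver, against 1.13 in the second and 0.919 and 0.815 in the +/+ livers. For pyruvate carboxylase both livers labelled +/- were above the +/+ livers, at 25.4 and 12.003 against 5.91 and 5.73. A high ratio means less signal from probes far from the 3' end relative to those near it, and its part in the differences below was not tested. Results are therefore given with all 4 livers and without this one.

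**Figure D1:**
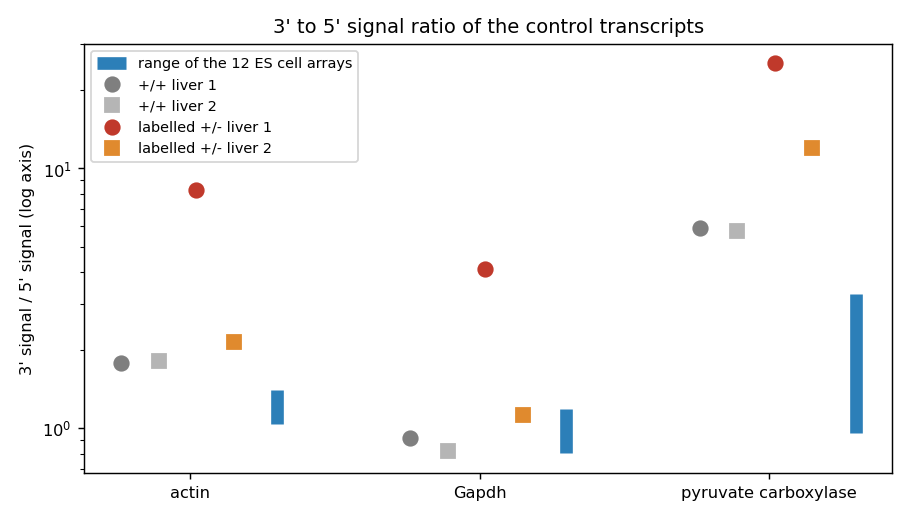
Ratio of 3' to 5' signal (log axis) of 3 control transcripts in each liver, with points for single arrays and a bar for the range of the 12 ES cell arrays. The first liver labelled +/- lies highest for each transcript, at 8.23 for actin and 4.10 for Gapdh, and the other 3 livers lie close together for actin and Gapdh.

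Among 7160 probe sets tested, 1 rose in the livers labelled +/- and 0 fell at an adjusted p under 0.05 (limma with Benjamini-Hochberg adjustment), which is 0.014% of those tested. At an unadjusted p under 0.05, 843 probe sets were higher and 478 lower. The median log2 difference of all probe sets was 0.11, and it was 0.00 without the first liver labelled +/-, so small differences are read against that shift. The count of calls depended strongly on which livers entered. Without the first liver labelled +/-, 5 rose and 4 fell of 6904, or 0.13%, and without the second, 958 rose and 695 fell. Without the first +/+ liver 56 rose and 26 fell, and without the second +/+ liver 18 rose and 9 fell. In each of these the lone liver of a label was assumed to vary as the pair of the other label did.

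The probe set that rose belongs to Nav2, on chromosome 7, which encodes a microtubule-associated protein best known from developing neurons. Nav2 signals were 67.8 and 71.1 in the +/+ livers and 1826 and 870.2 in those labelled +/-. Both livers labelled +/- were thus far above both +/+ livers, which lay below the minimum signal of 100 used for testing. The log2 difference was 3.67 (SE 0.40, 95% interval 2.78 to 4.57) on the log2(signal + 32) scale, with an adjusted p of 0.0281 in limma. Nav2 thus met the signal minimum only through the livers labelled +/-, and the size of its difference depends on the constant added, being 4.16 with 1 and 3.01 with 100. With the first liver labelled +/- left out the difference was 3.15 (SE 0.37) with an adjusted p of 0.0265. The call was lost with quantile normalization (3.59, adjusted p 0.199 in limma) and in a fit without the intensity trend of the variances (3.67, adjusted p 0.0933), with differences about as large.

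Apob had the next smallest p. Its signals were 789 and 715 in the +/+ livers and 4555 and 3749 in those labelled +/-, and the labels did not overlap. The log2 difference was 2.41 (SE 0.33, 95% interval 1.67 to 3.15), with an adjusted p of 0.0984 in limma, which missed the threshold. Without the first liver labelled +/-, the difference was 2.27 (SE 0.30) and the adjusted p 0.0332, so Apob was among the 9 probe sets called there. It passed without any other single liver as well, with adjusted p of 0.00997 and 0.0441 without the first and second +/+ liver and 5.0e-04 without the second liver labelled +/-. The other genes of the 9 were Pter, Bcl6 and Xist, higher in the second liver labelled +/- than in the +/+ livers, and Acta1, Dmbt1, Tnni1 and Lypla1, lower there. Nav2 was the remaining one.

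Ranked by the brightest probe set of each gene, the 15 genes with the smallest p were all higher in both livers labelled +/- than in either +/+ liver. Apart from Nav2 their adjusted p lay between 0.0984 and 0.101. Such a lack of overlap was common over the array: of 5464 genes tested, 32% lay higher in both livers labelled +/- and 20.8% lower in both. Other probe sets of a gene were not ranked, and some had as small a p. A Lypla1 probe set was lower in both livers labelled +/-, with a log2 difference of -3.01 (SE 0.54, p 2.5e-04 in limma). That p was below the 3.3e-04 of Slc4a4, the last of the 15. A Cd47 probe set was higher in both, at 2.31 (SE 0.39, p 1.6e-04 in limma). Pter, a metal-binding hydrolase family member, gave 772 and 535 in the +/+ livers and 3162 and 3359 in the others. Masp1, a protease of the lectin pathway of complement, gave 238 and 117, then 1264 and 1023. The log2 difference of Pter was 2.29 (SE 0.34), and that of Masp1 2.54 (SE 0.38). Zfp36l2, which promotes decay of AU-rich transcripts, gave 279.8 and 265 against 1318 and 1099.6. Atxn2, an RNA-binding protein, gave 230.3 and 164 against 1049 and 848, from a probe set that may hybridise to more than 1 transcript. Ddx5, an RNA helicase, gave 215 and 201 against 1107 and 728.

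Rab11b, a small GTPase of recycling endosomes, gave 241 and 84.2 in the +/+ livers and 1792 and 923 in those labelled +/-, a log2 difference of 2.89 (SE 0.47). Nbr1, an autophagy receptor, gave 519 and 286 against 2272 and 1595. Gna11, a G protein alpha subunit, gave 44.1 and 39.6 against 448 and 299, so that its +/+ values lay near the bottom of the scale. Slc6a6 imports taurine, and its signals were 334 and 331 against 1341 and 1112. Slc4a4 cotransports sodium and bicarbonate and gave 62.6 and 93.3 against 525 and 360.5. Gna11 and Slc4a4 met the signal minimum only through the livers labelled +/-, as Nav2 did. Otud4, a deubiquitinase, gave 92.3 and 154 against 925 and 525, from a probe set that may hybridise to more than 1 transcript. Cebpb, a transcription factor of the acute phase and of gluconeogenesis, gave 1072 and 867 against 3238 and 3709.6. Zfp36l2 had another probe set that gave 409 and 393 against 381 and 285, in the opposite direction.

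**Figure D2:**
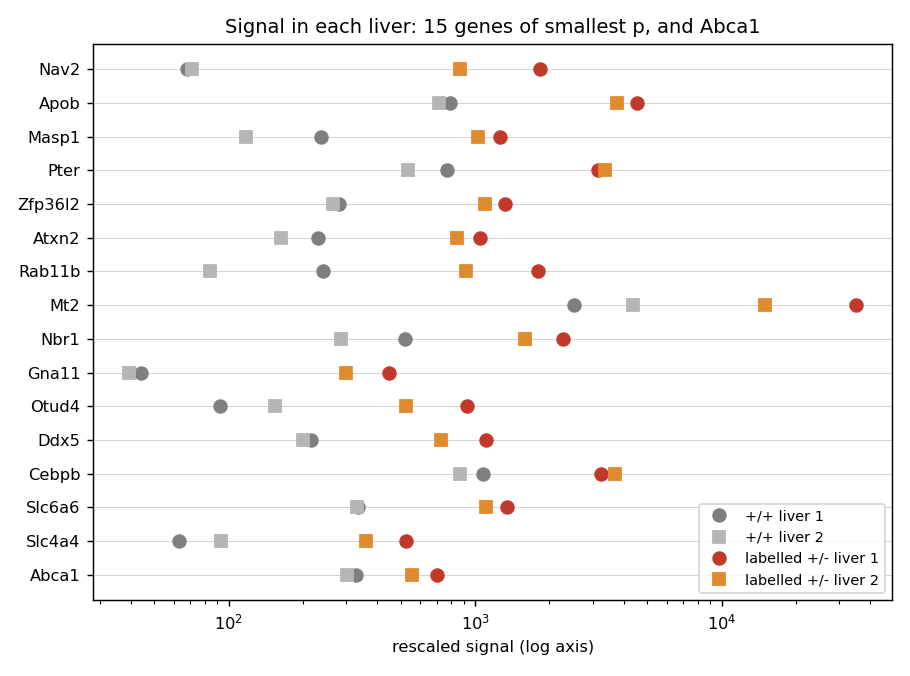
Rescaled signal (log axis) in each of the 4 livers for the 15 genes with the smallest p, ordered by p from the top, and for Abca1 at the bottom. Each gene is ranked and shown by its brightest probe set. For every gene both points of the livers labelled +/- lie to the right of both +/+ points, and for Pter and Cebpb the second liver labelled +/- lies above the first.

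Genes higher in the livers labelled +/- spanned more of the genome than genes lower there. At an unadjusted p under 0.05 the 675 higher genes were 12.4% of the genes tested and the 357 lower genes 6.53%. The median genomic span was 32.4 kb for the higher genes (671 with a span) and 9.33 kb for the lower, against 18.7 kb over all genes tested. Leaving out the first liver labelled +/-, the medians were 29.5 kb for the 538 higher genes, 10.3% of those tested, and 11.5 kb for the 282 lower genes, 5.38%. The actin, Gapdh and pyruvate carboxylase ratios of the second liver labelled +/- were also above those of both +/+ livers, and their part in the difference in span was not tested. Nav2 spans 651028 bases and Mt2 950 bases.

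Abca1 itself has a pair of probe sets that differed in direction. The brighter gave 327 and 301 in the +/+ livers and 699 and 555 in those labelled +/-, where both were higher. The log2 difference was 0.92 (SE 0.33, 95% interval 0.18 to 1.66), with an adjusted p of 0.191 in limma. Of the fits without 1 liver it passed only in that without the second labelled +/-, where it was 1.08 with an adjusted p of 0.0283 in limma. An exact two-sided permutation test of these 4 values gave p = 0.333, the smallest that 2 against 2 can give. The other probe set gave 295 and 140.3 against 41.5 and 161, with a log2 difference of -0.996 and an adjusted p of 0.366, and there the labels overlapped. In ES cells the brighter probe set gave 110 ± 14.8 (SD, n = 3) in the Abca1 +/- line and 141 ± 38.1 (SD, n = 3) in its ESVJ control. Where either probe set lies relative to the altered part of the gene is not given in the sources used here, so neither checks the genotype. Since the brighter probe set was not lower in the livers labelled +/-, they are called by that label throughout.

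The promoter of Abca1 is shown because its level is set largely through LXR. The 250 bases before the RefSeq start (GRCm38.p6, chr4:53159896-53160145, minus strand) are printed 5′ to 3′, with the LXR element described for this gene, TGACCGNNNNTAACC, in capitals.
Abca1: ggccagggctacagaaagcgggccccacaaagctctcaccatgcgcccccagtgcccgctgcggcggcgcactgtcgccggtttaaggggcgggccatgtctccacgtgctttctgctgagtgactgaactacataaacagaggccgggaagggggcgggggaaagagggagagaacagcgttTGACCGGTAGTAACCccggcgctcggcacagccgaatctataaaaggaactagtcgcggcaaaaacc
The element lies 67 to 53 bases before the start. Searched on both strands, it occurs in 4 of 32851 promoter windows of this length, 0.0122%, a share that means little for a pattern taken from Abca1. Of 12 LXR target genes tested, 0 passed the adjusted threshold, and 4 were higher and 0 lower at an unadjusted p under 0.05. Counts at that level are to be read against the 12.4% higher and 6.53% lower of all genes tested, here and for the lists that follow. Their median log2 difference was 0.36, against 0.12 over all genes tested, and 0.21 against 0.03 without the first liver labelled +/-. The 4 higher members were Abca1, Lpcat3, Pltp and Srebf1. Without regard to p, 4 of the 12 were higher in both livers labelled +/- than in either +/+ liver, and 2 were lower. Over all genes tested these shares were 32% and 20.8%, so the counts lay near them. Nr1h3, which encodes an LXR, was among the lower, at 3021 and 3943 against 1657 and 2425. Lpcat3, which places polyunsaturated chains in phosphatidylcholine, gave 286 and 214 against 877 and 562. Pltp, the phospholipid transfer protein, gave 264 and 309 against 795 and 570.02, and Srebf1, the regulator of fatty acid synthesis, 2449 and 1827 against 6946 and 3592. Abcg1, another LXR-driven cholesterol exporter, gave 560 and 615 against 1226 and 434, with the highest and the lowest value both among livers labelled +/-. Cyp7a1, which starts bile acid synthesis, gave 164 and 155.5 against 44.2 and 351, again with both extremes there.

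The 3 nearest genes tested on each side of Abca1 on chromosome 4 lie 7, 13 and 38 genes away on one side and 35, 42 and 44 on the other, so they are not close to it. None of the 6 passed the adjusted threshold. Slc44a1, a choline transporter, gave 254 and 231 in the +/+ livers and 842 and 599.8 in those labelled +/-, a log2 difference of 1.44 (SE 0.34) with an adjusted p of 0.113. Rad23b and Tmem38b were higher in both livers labelled +/-, with log2 differences of 0.95 and 0.52. On the other side Mrpl50 was lower in both, by a log2 difference of -0.73, whereas Baat and Rnf20 overlapped. Another Rnf20 probe set was higher in both, at 70.5 and 67.9 against 219 and 82.9, and met the signal minimum only through the first liver labelled +/-.

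Of 26 lipoprotein and cholesterol transport genes tested, 0 passed. At an unadjusted p under 0.05, 6 were higher and 1 lower, against 12.4% and 6.53% of all genes, and the median log2 difference was 0.28 against 0.12. The counts were 5 and 1 of 25 without the first liver labelled +/-, with Apob passing, against 10.3% and 5.38% of all genes, and the median was 0.14 against 0.03. Npc1, which releases cholesterol from lysosomes, gave 549 and 680.5 in the +/+ livers and 1767 and 1539.5 in those labelled +/-. Lipa, the lysosomal lipase, gave 876 and 762 against 1584 and 1487. Lrp1, a remnant receptor, gave 1267 and 1039 against 4423 and 1752. Apoa4, a component of nascent particles, was the lower member and gave 18852 and 14977 against 9578 and 9328. Apoc4, a minor apolipoprotein, gave 25273 and 39490 against 17290 and 19971, without overlap. Apoa1, the acceptor of the lipid that Abca1 exports, gave 36292 and 51535 against 43471 and 33061 and overlapped.

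Cholesterol synthesis genes separated the livers labelled +/- from each other. Of 16 tested, 13 had their highest signal in the second liver labelled +/- and 10 their lowest in the first. Over all genes tested the second was highest for 15.9% and the first lowest for 27.2%. With all 4 livers 2 were higher and 0 lower at an unadjusted p under 0.05 and 0 passed the adjusted threshold, with a median log2 difference of 0.27. Without the first liver labelled +/- 15 of 16 differences were positive. The median was then 1.08, against 0.03 over all genes tested. Hmgcs1, which makes the precursor of mevalonate, gave 898 and 804 in the +/+ livers and 1704 and 2927 in those labelled +/-. Its log2 difference without the first was 1.75 (SE 0.30, adjusted p 0.0573 in limma). Cyp51, which demethylates lanosterol, gave 194 and 146 against 192 and 651. Sqle, which makes squalene epoxide, gave 647 and 529 against 635 and 1338. Idi1, the isopentenyl isomerase, gave 1976 and 2398 against 805 and 4392, and Msmo1, a sterol methyl oxidase, 920.1 and 835 against 397 and 2301. Lss, which closes the sterol rings, was the member besides Hmgcs1 that was higher in both livers labelled +/-, at 190.3 and 149 against 411 and 448. Mvk was the 1 member lower in both, at 626 and 790 against 408 and 611.

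The Hmgcs1 promoter is shown as that of the member with the smallest p on this list. The 250 bases before its RefSeq start (GRCm38.p6, chr13:119690101-119690350, plus strand) carry in capitals a match to the sterol regulatory element, searched as TCACNCCAC on both strands.
Hmgcs1: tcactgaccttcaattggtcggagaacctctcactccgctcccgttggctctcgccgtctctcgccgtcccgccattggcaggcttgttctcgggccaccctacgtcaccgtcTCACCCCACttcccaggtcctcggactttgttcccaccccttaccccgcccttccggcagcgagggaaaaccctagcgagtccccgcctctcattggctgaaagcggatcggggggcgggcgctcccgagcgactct
The match lies 137 to 129 bases before the start, and 346 of the 32851 windows, 1.05%, hold at least 1. Of the 16 genes tested 13 had a window, and Hmgcs1 was the only one of these with a match.

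Counts of fatty acid genes lay near the shares of all genes, 12.4% higher and 6.53% lower. Of 14 genes of fatty acid and triglyceride synthesis, 2 were higher and 1 lower at an unadjusted p under 0.05 and 0 passed, with a median of 0.48. Fads1, a fatty acid desaturase, gave 1700.1 and 1322 in the +/+ livers and 3127 and 3105 in those labelled +/-. Thrsp, a lipogenic regulator, gave 7247 and 6483 against 1235 and 5526. Of 22 genes of fatty acid oxidation and PPARA response, 1 was higher and 2 lower, 0 passed, and the median was -0.12. Cpt1a, the gate of mitochondrial oxidation, gave 1613 and 1213 against 6067 and 3379, a log2 difference of 1.67 (SE 0.38, adjusted p 0.113 in limma). Acads and Angptl4 were the lower members, with the first liver labelled +/- lowest for both. Another Acads probe set overlapped, at 845 and 875 against 1260.0 and 749. A weaker Angptl4 probe set also overlapped, at 154 and 307 against 242 and 142, whereas a further one was lower in both, at 1104 and 1114 against 463 and 1000. Of 14 bile acid genes 3 were higher and 0 lower, 0 passed, and the median was 0.27. Nr0b2, the repressor that bile acids induce, gave 493 and 304 against 813 and 888. Of 9 genes of glucose production 0 were higher or lower at that level and the median was 0.22.

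Metallothionein transcripts of the liver were more abundant in both livers labelled +/- than in either +/+ liver, without passing the adjusted threshold. Metallothioneins are small cysteine-rich proteins that bind zinc and copper and respond to metal, glucocorticoid and inflammation. Mt2 gave 2508 and 4387 in the +/+ livers and 35119 and 14990 in those labelled +/-. Mt1 gave 2642 and 5514 against 27377 and 12354. For both genes the first liver labelled +/- was highest, and neither gene overlapped between labels. The log2 difference was 2.78 (SE 0.46, 95% interval 1.76 to 3.80) for Mt2 with an adjusted p of 0.101 in limma, and 2.26 (SE 0.47) for Mt1 with an adjusted p of 0.106. Without the first liver labelled +/- they were 2.16 (adjusted p 0.0644) and 1.69 (adjusted p 0.129), and without the second both passed, at 3.39 (adjusted p 5.0e-04) and 2.83 (adjusted p 0.00192). Slc30a1, a zinc exporter, gave 75.3 and 29.97 against 211 and 135, and met the signal minimum only through the livers labelled +/-. Mtf1, the metal sensor that drives these genes, gave 243 and 229 against 131 and 172. Of 7 list members tested, 3 were higher and 0 lower at an unadjusted p under 0.05, 0 passed, and the median was 0.83 with all livers and -0.23 without the first labelled +/-, where 6 were tested.

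The Mt2 promoter is printed because metal response elements in it are what Mtf1 reads. The 250 bases before its RefSeq start (GRCm38.p6, chr8:94172368-94172617, plus strand) carry in capitals the core of that element, searched as TGCGCNC and TGCACNC on both strands.
Mt2: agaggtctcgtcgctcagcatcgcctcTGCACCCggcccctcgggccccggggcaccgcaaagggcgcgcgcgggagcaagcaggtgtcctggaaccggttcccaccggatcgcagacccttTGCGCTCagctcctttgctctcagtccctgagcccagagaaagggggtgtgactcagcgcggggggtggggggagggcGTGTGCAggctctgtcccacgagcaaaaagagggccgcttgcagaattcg
It holds 3 matches, of which the one 50 to 44 bases before the start is on the opposite strand. Of all windows 21.4% hold at least 1 match and 1.26% hold 3 or more.

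Acute phase genes, the plasma proteins and regulators that the liver makes in inflammation, were highest in the first liver labelled +/- for 16 of 25 genes tested, against 46.9% of all genes tested. Saa2, a serum amyloid A, gave 1180.4 and 964 in the +/+ livers and 51423 and 1352 in those labelled +/-, from a probe set that may hybridise to more than 1 transcript. Lcn2, an iron-scavenging lipocalin, gave 371 and 128 against 7877 and 318, and Orm2, an orosomucoid, 490.3 and 434 against 6030.1 and 515. In these the second liver labelled +/- lay close to the +/+ livers. Other members lay above both +/+ livers in both: Serpina3n, a protease inhibitor, gave 2467 and 1653 against 12045 and 4535, and Itih3, a hyaluronan-binding protein, 7683 and 4569 against 29923 and 13245. With all livers 8 were higher and 0 lower at an unadjusted p under 0.05, 0 passed, and the median was 0.59. Without the first labelled +/- the median was 0.22, against 0.03 over all genes tested. Socs3, a feedback inhibitor of interleukin-6 signalling, gave 122 and 162 against 730.5 and 138.

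**Figure D3:**
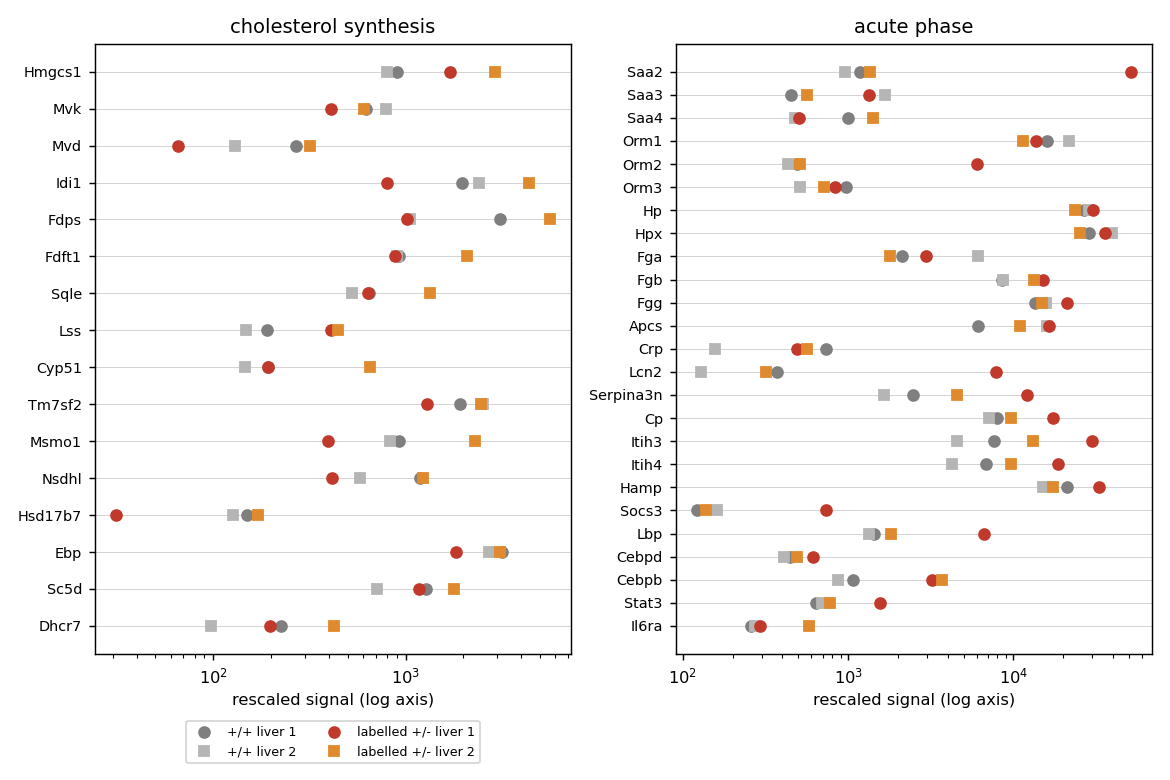
Rescaled signal (log axis) in each liver for the cholesterol synthesis genes (left) and the acute phase genes (right) that were tested. On the left the second liver labelled +/- is highest for 13 of 16 genes, and on the right the first liver labelled +/- is highest for 16 of 25.

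Macrophage transcripts were also highest in the first liver labelled +/-. It had the highest signal for 12 of 13 Kupffer cell and macrophage markers tested, against 46.9% of all genes tested. Their summed signal was 7625 and 9511 in the +/+ livers and 17341 and 10448 in those labelled +/-. Csf1r, the receptor for macrophage growth factor, gave 218 and 195 against 1326 and 504, with the brighter of its probe sets, and Mpeg1, a pore-forming macrophage protein, 302 and 409 against 2772 and 570.3, whereas Marco, a scavenger receptor, stayed between 8.82 and 28.0 in all 4. The other Csf1r probe set overlapped, at 296 and 213 against 314 and 126. In bulk tissue more cells of a type and more RNA per cell cannot be told apart. Lymphocyte and antigen presentation markers summed to 2931 and 4283 against 7888 and 4158, and neutrophil markers to 893 and 1119 against 2003 and 607. The part of these cells in the acute phase and interferon differences was not tested. Interferon and MHC class I genes had a median of 0.57 over 23 tested, with 5 higher and 0 lower at an unadjusted p under 0.05 and 0 passing. Among them H2-K1, an MHC class I chain, gave 10530 and 9100 in the +/+ livers and 21859 and 15305 in the others, though a weaker probe set of it was lower there. The brightest H2-K1 probe set may hybridise to more than 1 transcript. Coagulation and complement genes had 7 higher and 1 lower of 26, 0 passing, with a median of 0.47. Without the first liver labelled +/- their median was 0.26, against 0.03 over all genes tested. C8g was the lower member, at 25007 and 32330 against 12353 and 17921.

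Transcripts that vary with the hour or with handling were measured because the labels give neither. Of 15 clock genes tested 3 were higher and 0 lower at an unadjusted p under 0.05, 0 passed, and the median was 0.41. Bhlhe40, a clock repressor, gave 329 and 212 in the +/+ livers and 899 and 876 in those labelled +/-. Per1 gave 59.7 and 44.6 against 209 and 195, and met the signal minimum only through the livers labelled +/-. Nr1d1, the nuclear receptor REV-ERB alpha, gave 535 and 522 against 1002 and 887. Dbp, a strongly rhythmic output gene, gave 12.4 and 63.3 against 61.2 and 328, and overlapped, whereas Arntl was 172 and 113 against 388 and 113. Of 16 immediate early genes 3 were higher and 0 lower, 0 passed, and the median was 0.55. Zfp36, a decay factor of cytokine transcripts, gave 377 and 349.8 against 1514 and 919.98, and Jund 1314 and 955 against 4361 and 2481. Fos, the usual marker of fresh stimulation, was between 11.7 and 75.1 in all 4 livers, under the signal minimum.

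Transcripts that mark sex differed between these livers, and the labels give no sex. Xist, the transcript of the inactive X chromosome, gave 144 and 76.5 in the +/+ livers and 113 and 992 in those labelled +/-. Only the second liver labelled +/- was high, and without the first the log2 difference was 2.89 with an adjusted p of 0.0332. The Y-linked Eif2s3y, Kdm5d and Uty were between 7.76 and 56.8 in all 4, under the signal minimum. Hsd3b5, a male-biased steroid reductase of liver, gave 474 and 2113 against 125 and 190.02, with a log2 difference of -2.48 (SE 0.58, adjusted p 0.113 in limma). All 7 male-biased genes tested had negative differences, against 2289 of the 5464 genes tested, with a median of -0.49. At an unadjusted p under 0.05, 2 were lower and 0 higher, and 0 passed. The second +/+ liver was highest for 6 of the 7, against 24.7% of all genes tested. Summed signals of the 8 on the array were 103880 and 154890 in the +/+ livers and 106140 and 91566 in those labelled +/-. The 8 female-biased genes had a median of 0.07, and 0.54 without the first liver labelled +/-. The part of sex in the other differences was not tested.

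Medians of the remaining lists lay on both sides of the 0.12 of all genes. Heat shock proteins had 2 higher and 4 lower of 16 at an unadjusted p under 0.05, with a median of 0.04. Hspa9 and Hspd1, chaperones of mitochondria, were the higher and Hspa8 and Stip1, of the cytosol, among the lower. A weaker Hspd1 probe set went the other way, at 267 and 199 against 97.1 and 183. The unfolded protein response had 3 higher and 2 lower of 21, also with a median of 0.04. Its Pdia6, a disulfide isomerase, gave 2001 and 2156 against 84.6 and 1209 with the probe set used, whereas another of its probe sets gave 732 and 637 against 619 and 667. NRF2 and glutathione genes had 0 higher and 4 lower of 23, median -0.07, with Gstt2 at 7348 and 10005 against 1959 and 4997. Cytochrome P450 genes had 1 of 22 in each direction, the urea cycle 0 of 17 in either, and the cell cycle 1 of 13 higher, with medians of 0.10, -0.06 and -0.08. None of these passed the adjusted threshold. Hepatocyte markers had a median of -0.18 over 11, and -0.32 without the first liver labelled +/-, among them Hnf4a, a hepatocyte master regulator, at 867 and 569 against 170.3 and 421, and Cebpa at 4850 and 4321 against 13174 and 7933. Endothelial markers had a median of 0.32 over 11, of which 10 were positive, against 3175 of the 5464 genes tested. Stellate cell and fibroblast markers had a median of -0.28 over 11, and skeletal muscle markers -0.57 over 6. The medians were 0.11 over 9 for periportal and -0.14 over 10 for pericentral hepatocyte markers, 0.16 over 4 for cholangiocytes, -0.10 over 4 for erythroid cells, 0.07 over 7 for pancreatic acinar cells and -0.07 over 3 for adipocytes.

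**Figure D4:**
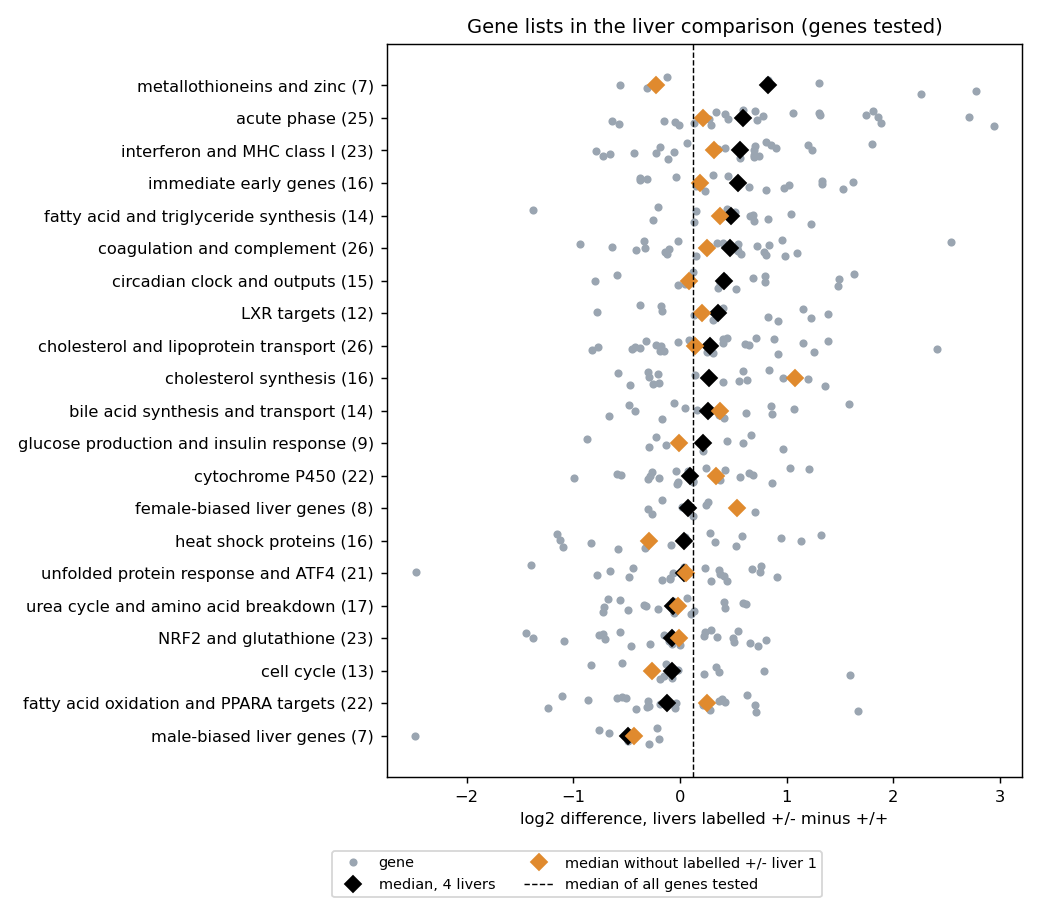
Log2 difference (livers labelled +/- minus +/+) of each gene tested, by list, with the number of genes tested in brackets; black diamonds are medians over 4 livers and orange diamonds medians without the first liver labelled +/-. The cholesterol synthesis median moves from 0.27 to 1.08 and the acute phase median from 0.59 to 0.22, and the dashed line marks the median of all genes, 0.12.

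Livers of 1 label differed from each other to very different degrees. Of 7160 probe sets, 406 (5.67%) differed at least 2-fold between the +/+ livers and 1205 (16.8%) between the livers labelled +/-. Between labels the second liver labelled +/- and the first +/+ liver differed least, with 589 probe sets (8.23%), and the first labelled +/- and the second +/+ most, with 2262 (31.6%). Between the livers labelled +/-, the 10 genes most above in the first were Saa2, Saa-ps, Lcn2, Bcl3, Acta1, Orm2, Gadd45g, Dmbt1, Atp2a1 and Prtn3. The probe sets of Saa2 and Saa-ps may each hybridise to more than 1 transcript, so their values may not be independent. Bcl3, a cofactor of NF-kappa B, gave 1771 in the first and 67.9 in the second. The skeletal muscle transcripts Acta1 and Atp2a1 differed as much, with the second low: Acta1 gave 644 and 505 in the +/+ livers and 1434 and 60.4 in those labelled +/-. Summed muscle markers were 1774 and 1910 against 2697 and 575. The 10 genes most below in the first were Pdia6, Cct3, Csrp3, Avpi1, Car8, Inmt, Xist, Polr1d, Pam16 and Hk1. Inmt, a methyltransferase, gave 18970 and 31247 in the +/+ livers and 2116 and 15269 in those labelled +/-.

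Between the +/+ livers the second was most above the first for 0610005C13Rik, Cyp26a1, Ido1, Snrp1c-ps2, Hspb11, Hsd3b5, Rps13, Samd10, Chchd6 and Mxd3. Cyp26a1, the retinoic acid hydroxylase, gave 41.1 in the first and 644 in the second. The second was most below the first for Sult2a2, Gstm2, Cyp17a1, Mms19, Dnmt1, Gtf3c4, Sec63, Rag1, Tbl2 and Crp. Sult2a2, a bile acid sulfotransferase, gave 7419 and 1283, and Cyp17a1, a steroid hydroxylase, 2884 and 585. Differences of 4-fold and more in named liver enzymes therefore occurred between livers of the same +/+ label.

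**Figure D5:**
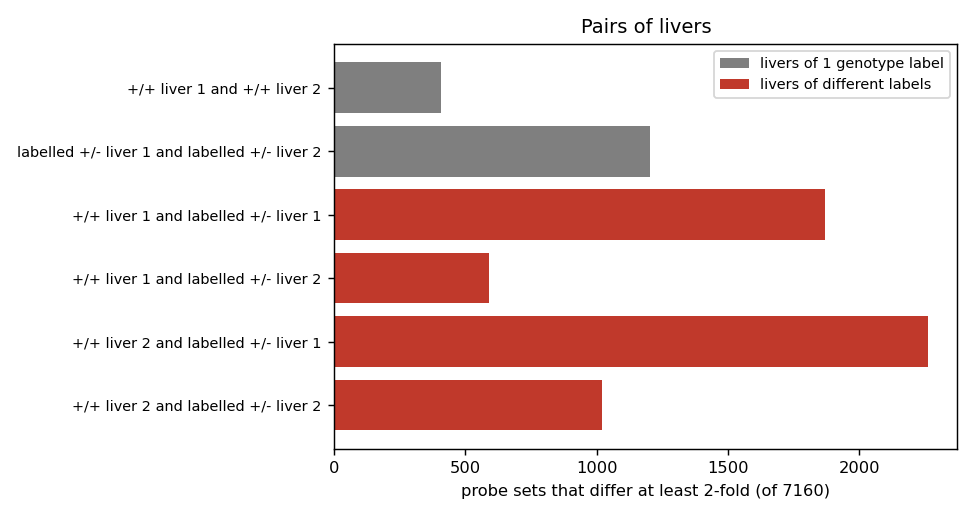
Number of probe sets, of 7160, that differed at least 2-fold within each pair of livers; grey bars join livers of 1 label and red bars livers of different labels. The pair labelled +/- (1205) differs more than the second liver labelled +/- differs from either +/+ liver (589 and 1020).

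The liver difference was set against the difference between Abca1 +/- and ESVJ ES cells in 1 model of 10 arrays. That model has 1 estimate of the spread for each probe set, so it takes the livers to vary as the ES cell cultures do. With the same spread the liver comparison alone gave 900 probe sets that rose and 457 that fell, so its small adjusted p rest on that assumption. Of 7883 probe sets, 188 (2.38%) had an effect that differed between liver and ES cells at an adjusted p under 0.05 in limma, 159 of them with the higher value in liver and 29 with the lower. Nav2 had a log2 difference of 3.67 in liver and 0.51 (SE 0.26) in ES cells, and the difference of these was 3.17 (SE 0.40, adjusted p 0.0160). For Apob the ES value was -0.28 and the difference of the effects 2.69 (SE 0.36, adjusted p 0.0160). For Mt2 the ES value was -0.12 and the difference 2.90 (SE 0.52, adjusted p 0.0237). For Nav2 and Apob the adjusted p rose to 0.0582 without ES array 3 of the Abca1 +/- line and to 0.0513 without array 3 of ESVJ, and for Mt2 to between 0.0640 and 0.0784 without any 1 ES array other than the first of the Abca1 +/- line. The count rested on single arrays: it was 32, 4 and 1 without ES array 1, 2 and 3 of the Abca1 +/- line, and 2, 18 and 0 without array 1, 2 and 3 of ESVJ. It was 356 and 28 without the first and second +/+ liver, and 102 and 2007 without the first and second liver labelled +/-.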

How the data were processed

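Signals of 12488 probe sets on 16 arrays were read from the authors' table. Per the labels, the authors made these intensity values with MAS5.0 at default settings; on every liver array their trimmed mean was the same to within 0.1%. Each array was rescaled to a trimmed mean of 500. Probe sets were named through the platform annotation: 10833 had 1 gene, 396 several and 1193 none, and a gene is represented by its brightest probe set over the livers. Each fit kept probe sets whose mean signal on its own arrays was 100 or more, tested on log2(signal + 32) with lmFit and trended eBayes (limma 3.58.1, R 4.3.3), with Benjamini-Hochberg adjustment, after tests on simulated data. Genes are named by rule: Abca1, Nav2, Apob and Mt2, the 15 of smallest p, up to 4 leading members of a list, 6 neighbours of Abca1 and the 10 most different each way within a label; others named were chosen after their values were seen. The comparison and the lists were chosen with earlier results of these data known. Promoters are from RefSeq (GRCm38.p6).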

Additional observations from a re-analysis of the deposited data

Results flagged for a closer look

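The effect of the label differed between liver and ES cells for the following genes by a test of the difference itself, an interaction term in limma over 10 arrays with Benjamini-Hochberg adjustment. That model takes the livers to vary as the ES cell cultures do. The genes are the 5 furthest above 0 and the 5 furthest below 0 among those that passed. Each value is the liver log2 difference minus the ES cell log2 difference. Nav2 had 3.17, Lclat1 (a lysocardiolipin acyltransferase) 3.04, Mt2 2.90, Rab11b 2.84 and Apob 2.69. Lclat1 combined a liver difference of 2.00 (SE 0.54) with an ES cell difference of -1.05 (SE 0.39), and neither passed the adjusted threshold by itself. Its signals were 35.1 and 186 in the +/+ livers and 559 and 363 in those labelled +/-.

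In the other direction Ackr4, a chemokine-scavenging receptor, had -2.07, of which 1.12 came from a higher value in Abca1 +/- ES cells. Neither its liver difference nor its ES cell difference passed by itself. Uqcc2, an assembly factor of respiratory complex III, had -1.95, Psma7, a proteasome subunit, -1.91, Map1lc3b, an autophagosome protein, -1.85 and Itgb1bp1, an integrin-binding protein, -1.78. Another probe set of Itgb1bp1 overlapped between the liver labels, at 493 and 605 against 561 and 457. Signals of Map1lc3b were 4133 and 6008 in the +/+ livers and 833 and 2051 in those labelled +/-. Tissue and the origin of the controls differ together between these comparisons and cannot be told apart.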

How the results depend on the processing

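The 1 probe set that rose became 2 on the authors' own scale, 3 without a signal minimum, 2 with the probe sets of a gene averaged, and 0 with quantile normalization or without the intensity trend. With the actin 3' to 5' ratio as a covariate 15 rose and 8 fell. With the spread estimated over 10 arrays 900 rose and 457 fell, and over all 16 arrays 1268 and 702, and these fits take the livers to vary as the ES cell cultures do. Leaving out 1 liver at a time gave 5 to 958 that rose and 4 to 695 that fell. The counts of probe sets whose effect differed between liver and ES cells were 0 to 2007 when 1 array was left out and 773 over all 16 arrays. Abca1 kept its log2 difference of 0.92 with an adjusted p of 0.0372 over 10 arrays and 0.0123 over all 16, ranged from 0.76 to 1.08 with 1 liver left out, and reversed to -0.037 when its probe sets were averaged. Rnf20 reversed to 0.24 with its probe sets averaged and to 0.41 with the covariate, and with a liver left out ranged from -0.80 to 0.27; Baat ranged from -0.86 to 0.0094 in the same way. Quantile normalization moved the median difference of all probe sets to -0.02, and the share of higher ones at an unadjusted p under 0.05 from 63.8% to 54.8%. At least 2-fold differences between the +/+ livers fell to 150 with a pseudocount of 100 and 203 with a signal minimum of 200, and between the livers labelled +/- to 723 with a pseudocount of 100. No paired analysis was possible because nothing in the labels ties a liver to another. The median half-width of a 95% interval was 0.85 on the log2 scale, and 2 arrays per label limit the precision.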
